A study of Mus musculus with 8 samples.

Results

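The respiratory chain genes described here are the nuclear genes for the subunits of mitochondrial complexes I to V, chosen by symbol alone (Ndufa, Ndufb, Ndufc, Ndufs and Ndufv genes with their numbers, Ndufab1, Sdha to Sdhd, Cyc1, and all symbols beginning with Uqcr, Cox4 to Cox8 or Atp5). The pattern took 85 of 24639 gene entries. By complex, 36 belonged to complex I, 4 to complex II, 9 to complex III, 19 to complex IV and 17 to complex V. Core subunits, meaning those with a counterpart in the bacterial enzyme, numbered 22, and accessory subunits 53. Another 7 were tissue isoforms of complex IV (Cox4i2, Cox6a2, Cox6b2, Cox7a1, Cox7b2, Cox8b and Cox8c), and 3 were related genes caught by the pattern that are not subunits in the usual count (Cox7a2l, Atp5s and Atp5sl). The catalytic subunits of complex IV and several subunits of complexes I, III and V are encoded by mitochondrial DNA and were not analysed here.

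RNA was sequenced from glomerular mesangial cells (MMC), the contractile support cells of the kidney filter, cultured from sieved glomeruli of C57BL/6J mice. WT MMC were compared to miR-379KO MMC, from mice homozygous for a CRISPR-Cas9 nickase deletion at miR-379, a microRNA that lies first in a large cluster on chromosome 12. Both genotypes were grown in RPMI medium with serum and neither carried any other treatment in the labels. Each genotype was profiled as total RNA (poly(A) selected, strand specific) and as RNA pulled down with the Argonaute protein AGO2 after UV cross-linking and sonication (AGO2-IP), with 2 replicates, A and B, in each of the 4 groups. The deletion is in the germline and so in every cell of the mouse, and the labels do not give the number of animals behind a culture. They also do not say whether an AGO2-IP sample and a total RNA sample of the same letter came from the same culture.

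Complexes I and II feed electrons from NADH and succinate to ubiquinone, complex III passes them to cytochrome c, complex IV reduces oxygen with them, and complex V, the ATP synthase, uses the proton gradient that complexes I, III and IV build. The nuclear subunit mRNAs are short and abundant in most cells, and several complex IV subunits exist as a ubiquitous form and a form restricted to heart, skeletal muscle, lung or testis. AGO2 carries microRNAs to target mRNAs, mostly in the 3′-UTR, by pairing with bases 2 to 8 of the microRNA, the seed.

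The mature miR-379-5p is shown because every direct question about its loss starts from its seed, marked in capitals. It lies on the plus strand at chr12:109709065-109709085 (GRCm38.p6, sequence from RefSeq).
miR-379-5p: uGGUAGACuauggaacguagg
The DNA letters that pair with the seed are GTCTACC. They occurred in an annotated 3′-UTR of 1 of the 85 genes, or 1.18%, against 3.93% of 20581 genes with sequence. In coding sequence they occurred in 4 of 85 genes, or 4.71%, against 8.21% of all. These shares were not adjusted for length, and the exons of the 85 genes are shorter, with a median of 763 bp against 2281 bp over all genes. The single 3′-UTR match was in Ndufv2, a core iron-sulfur subunit of complex I, on the minus strand at chr17:66079328-66079334, and coding matches were in Uqcrq of complex III, in Sdha (2 matches) and Sdhb of complex II, and in Ndufa10 of complex I. Each is shown with its flanks and the match in capitals.
Ndufv2 3′-UTR: ctatctcgGTCTACCtgtgaaga
Uqcrq coding: ttgtagtgGTCTACCtgatctac
Sdha coding: aagatcacGTCTACCtgcagttg
Sdha coding: ggccacacGTCTACCcggaattt
Ndufa10 coding: ccattccgGTCTACCtcccagaa
Sdhb coding: ccttctctGTCTACCgctgccac

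In AGO2-IP, Ndufv2 had 62 and 48 reads in the WT libraries and 43 and 43 in those of miR-379KO. After scaling to library size these were 6.08 and 5.55 CPM (counts scaled to a common library size) in WT and 5.04 and 5.49 CPM in miR-379KO, so both knockout libraries were below both WT libraries by little. The log2 fold change of Ndufv2 in AGO2-IP was −0.15 ± 0.27 (SE, edgeR quasi-likelihood test, Benjamini-Hochberg adjusted p = 0.708). In total RNA Ndufv2 was at 60.7 and 87.7 CPM in WT and 76.7 and 100.9 CPM in miR-379KO, which overlap, with a log2 fold change of 0.26 ± 0.27 (adjusted p = 1). Among the genes with coding matches, Uqcrq was called lower in AGO2-IP by a narrow margin (adjusted p = 0.0499) and Ndufa10, Sdha and Sdhb were not called (adjusted p = 0.104, 0.246 and 0.996). These are counts over whole genes, and the reads at the matches themselves were not analysed here.

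The total RNA libraries held between 17168230 and 22660743 gene counts and the AGO2-IP libraries between 5587611 and 17095021, of which the ribosomal precursor Rn45s and the locus Lars2 together took 80.0% to 89.0% in AGO2-IP. In total RNA, reads on respiratory chain genes numbered 92642 and 148198 (WT) and 168116 and 150388 (miR-379KO), and in AGO2-IP 5427 and 5686 (WT) and 3679 and 2892 (miR-379KO). AGO2-IP levels therefore rested on a median of 51.3 reads a gene in WT and 30.5 in miR-379KO over the genes tested. Mir379 itself had at most 4 reads in any library, so the gene counts could not check the genotype labels. The summed total RNA CPM of 9 mesangial markers was 11300 and 15100 for WT and 17900 and 16900 for miR-379KO, whereas 6 podocyte markers summed to 634 and 244 against 574 and 329, and 6 endothelial and 5 leukocyte markers stayed under 5 CPM. The 6 tubule markers summed to 6.56 and 52.5 CPM for WT and 30.0 and 45.3 for miR-379KO, with WT A lowest, and the 3 parietal markers to 139 and 189 against 151 and 100. Of the tubule markers 2 were at 0 in all 4 total RNA libraries. In these bulk samples fewer cells of a type and less RNA per cell cannot be told apart.

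In WT total RNA the subunit mRNAs stood in the order complex IV (median 134 CPM per kb of exon over 13 genes tested), complex V (128 over 17), complex III (71.8 over 9), complex II (70.4 over 4) and complex I (46.7 over 35). The order of complexes IV and V, and of III and II, is within the spread of the WT pair. Over all genes tested the median was 8.001 CPM per kb. Among core genes the median was 40.3 in complex I, 52.0 in complex III and 145 in complex V, and among accessory genes it was 52.9 in complex I, 76.3 in complex III, 141 in complex IV and 115 in complex V. The summed reads of the complexes, which also depend on the number and length of the genes, were in the order V, I, IV, III and II in each of the 8 libraries.

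**Figure D1:**
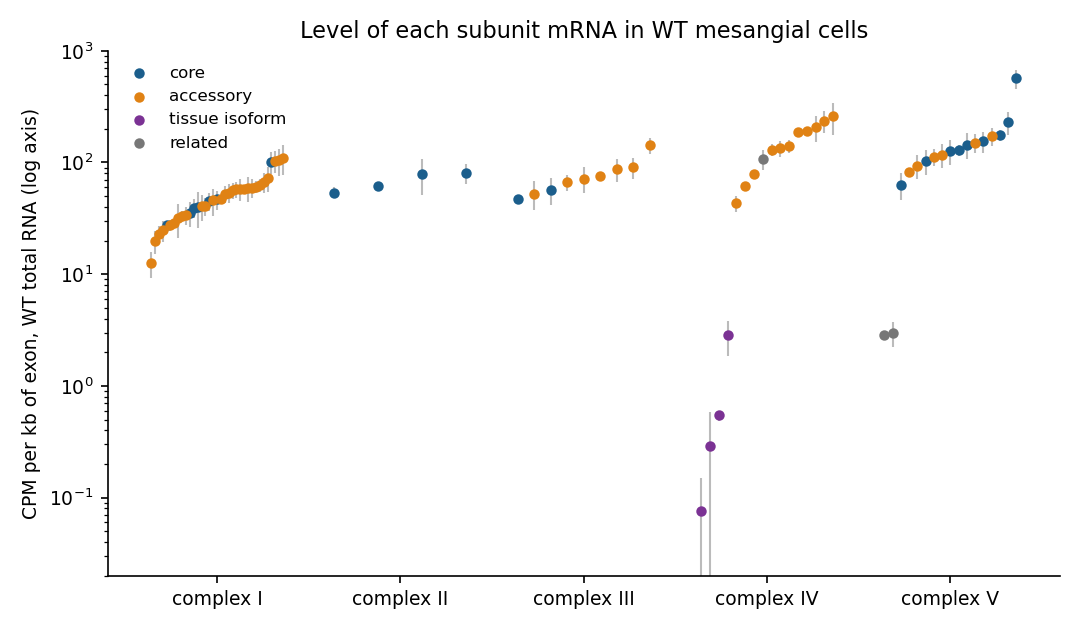
Level of each respiratory chain mRNA in WT total RNA, in CPM per kb of exon on a log axis, grouped by complex and coloured by class. Each point is the mean of the 2 WT libraries and each grey line joins their values, reaching the lower edge where a library had 0 reads. Atp5b stands highest at 569 CPM per kb, and the tissue isoforms and the related genes Atp5s and Atp5sl lie under 3 CPM per kb.

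In complex V, the catalytic β subunit Atp5b (GRCm38.p6 chr10:128083307-128090388, plus strand) had the highest level of all 85 genes, 569 ± 155 CPM per kb in total RNA of WT (SD, n = 2) and 739 ± 163 in that of miR-379KO. The paired α subunit Atp5a1 was at 229 ± 73.1 CPM per kb in WT, and the 3 genes for the identical membrane ring subunit c were at 63.0 ± 23.6 (Atp5g1), 154 ± 46.5 (Atp5g2) and 176 ± 29.1 (Atp5g3). The intervals of Atp5g2 and Atp5g3 overlapped. Each SD includes a difference between WT A and WT B that most members share. Overlap of intervals, here and below, therefore does not test a difference between genes. The central stalk subunits Atp5c1 (γ) and Atp5d (δ) were at 103 ± 35.8 and 128 ± 45.5 CPM per kb, the outer stalk genes Atp5f1 (b) and Atp5o (OSCP) at 128 ± 19.6 and 145 ± 53.0, and the intervals of all these overlapped. Atp5s was the lowest in complex V, at 2.87 ± 0.0225 CPM per kb. The counts of Atp5g2, Atp5g1 and Atp5l are uncertain, since 100%, 81.5% and 89.4% of the 51-base windows of their mRNAs also occur elsewhere in the genome and reads placed at several positions were not counted.

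In complex I, the NADH-oxidising arm was represented by Ndufs1 at 27.4 ± 1.47 CPM per kb in WT total RNA, Ndufv1 at 39.5 ± 10.9 and Ndufv2 at 45.3 ± 11.7. The genes of the ubiquinone-reducing arm included Ndufs3 at 46.7 ± 12.6, Ndufs7 at 35.6 ± 12.8 and Ndufs8 at 40.3 ± 20.1 CPM per kb, which lay within each other's spread. Levels of the accessory genes ran from 12.5 ± 4.56 for Ndufa11 to 110 ± 45.3 CPM per kb for Ndufb4. The level of Ndufb4 is uncertain, since 87.1% of its 51-base windows occur elsewhere in the genome. Ndufs5 was listed at 0 in all 8 libraries, and 82.6% of its 51-base windows occur elsewhere in the genome. Ndufb4, with a higher share, still had 593 to 1311 reads in total RNA. Why Ndufs5 was at 0 was not tested, and its 0 is not read as absence of its mRNA.

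In complex II the 4 genes lay close together, with Sdhc and Sdhd, the membrane anchors, at 80.5 ± 23.0 and 53.7 ± 8.51 CPM per kb, the iron-sulfur subunit Sdhb at 79.2 ± 40.1 and the flavoprotein Sdha at 61.5 ± 0.0984. In complex III the Rieske protein Uqcrfs1 was lowest at 47.4 ± 6.00, cytochrome c1 (Cyc1) was at 56.6 ± 21.8, and the small hinge protein Uqcrh was highest at 142 ± 31.6 CPM per kb. In complex IV Cox4i1 led at 259 ± 119 CPM per kb, and Cox6b1 (237 ± 73.9) and Cox6a1 (207 ± 77.6) lay within its spread. Cox7c was the lowest of the ubiquitous complex IV genes at 43.4 ± 10.2 CPM per kb, and 87.7% of its windows occur elsewhere in the genome.

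Promoters were examined because genes of these complexes are known to share activators, among them NRF1, GABP and YY1. RefSeq windows of 300 bases (250 before to 50 after the start, GRCm38.p6) were given for 70 of the 85 genes and for 27025 genes in all. Both strands were searched, and no motif contains another. The NRF1 core GCGCATGCG occurred in 8 of 70, or 11.4%, against 1.95% of all genes. The YY1 motif AAGATGGCG occurred in 8 of 70, or 11.4%, against 1.64%, and the GABP motif CCGGAAG in 16 of 70, or 22.9%, against 9.93%. The CCAAT box CCAAT was found in 44.3% against 41.1%, and the TATA box TATAAA in 10.0% against 15.7%. These shares describe letters in the windows and not binding. The 27025 genes were not filtered by type or by expression in MMC, so the contrast does not show a trait particular to the respiratory chain. The windows of Cox6a1, Uqcr11 and Atp5j, genes of complexes IV, III and V, are shown as examples with 2 of the first 3 motifs each, in capitals on whichever strand they occur. All are on the minus strand and printed 5′ to 3′, at chr5:115348909-115349208, chr10:80406772-80407071 and chr16:84834927-84835226.
Cox6a1: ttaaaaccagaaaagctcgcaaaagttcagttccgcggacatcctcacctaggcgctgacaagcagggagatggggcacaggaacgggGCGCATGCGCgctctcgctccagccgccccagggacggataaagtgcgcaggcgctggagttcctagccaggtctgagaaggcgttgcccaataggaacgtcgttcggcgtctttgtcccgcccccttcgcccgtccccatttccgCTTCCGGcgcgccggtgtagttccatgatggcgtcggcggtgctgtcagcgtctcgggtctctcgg
Uqcr11: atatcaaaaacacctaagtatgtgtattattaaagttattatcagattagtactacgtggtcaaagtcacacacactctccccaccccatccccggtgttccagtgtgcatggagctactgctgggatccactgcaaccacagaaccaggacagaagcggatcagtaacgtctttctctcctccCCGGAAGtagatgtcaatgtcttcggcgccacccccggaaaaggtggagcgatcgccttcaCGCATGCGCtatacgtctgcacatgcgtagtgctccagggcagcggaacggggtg
Atp5j: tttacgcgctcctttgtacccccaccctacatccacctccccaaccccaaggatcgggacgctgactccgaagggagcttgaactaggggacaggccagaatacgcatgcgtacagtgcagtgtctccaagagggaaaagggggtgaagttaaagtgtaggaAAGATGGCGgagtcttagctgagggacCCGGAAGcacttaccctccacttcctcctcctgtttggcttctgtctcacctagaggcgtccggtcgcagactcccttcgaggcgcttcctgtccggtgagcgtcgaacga

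The ubiquitous forms of complex IV were expressed and the tissue forms were at or near 0. In the order WT A, WT B, miR-379KO A and miR-379KO B, Cox4i1 had 2234, 4790, 4919 and 4825 reads in total RNA and its lung form Cox4i2 had 0, 2, 2 and 0. Cox6a1 had 1368, 2569, 2956 and 2244 reads, and the heart and muscle form Cox6a2 had 0, 7, 5 and 13. Cox7a2 had 906, 1167, 1404 and 1168 reads, and its heart and muscle form Cox7a1 had 3, 4, 6 and 4. Cox8b, Cox8c and Cox7b2 had 0 reads in all 4 total RNA libraries, where a count of 0 allows a level of up to 0.175 CPM in the shallowest (counting error only), beside 66.9 to 88.2 CPM for the ubiquitous Cox8a and 58.5 to 75.2 CPM for Cox7b.

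Of the tissue forms only Cox6b2, the testis form of Cox6b1, had enough reads in total RNA to be tested. It had 19 and 43 reads in WT, compared to 45 and 14 in miR-379KO, which overlap, and a log2 fold change of −0.32 ± 0.64 (adjusted p = 1), while Cox6b1 had 1457 to 3005 reads. In AGO2-IP the tissue forms had 0 to 6 reads a library. Cox7b2 had 1 and 0 reads in WT, compared to 3 and 3 in miR-379KO, Cox8c 0 and 0 against 4 and 1, and Cox7a1 0 and 0 against 3 and 2. Over 5193 protein-coding genes with 0 reads in total RNA, the AGO2-IP libraries held 1.35 and 0.913 reads per kb in WT, compared to 3.08 and 3.52 in miR-379KO, which is the scale of these few reads.

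**Figure D2:**
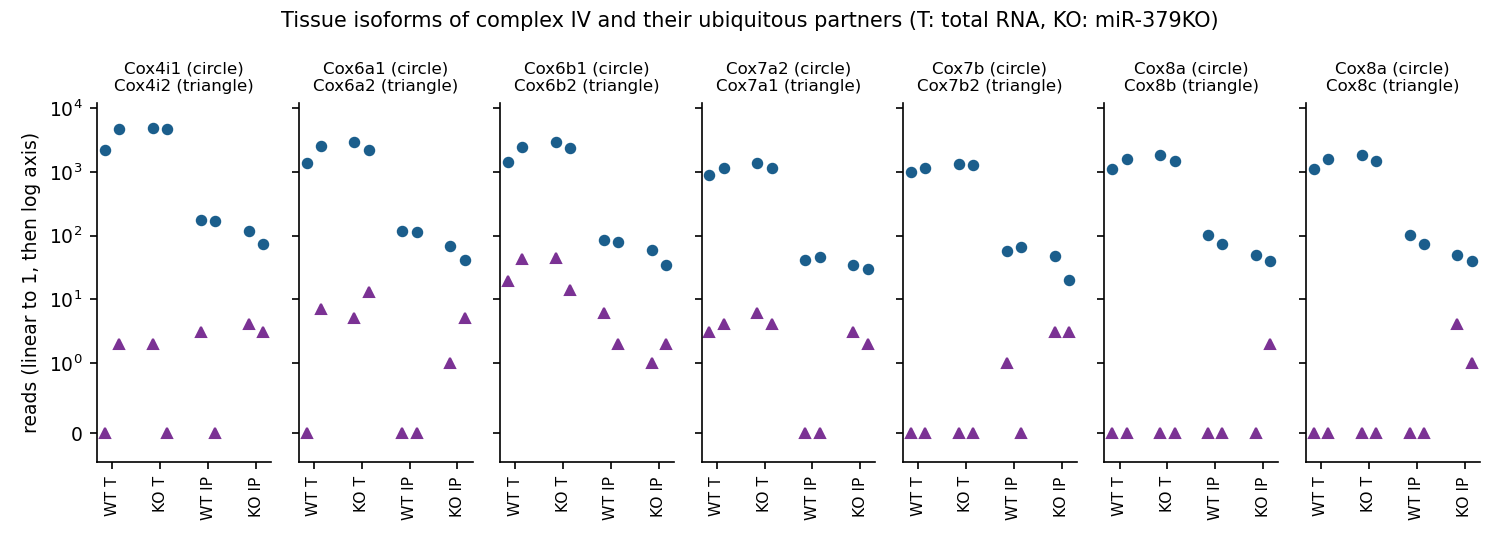
Reads of each tissue isoform of complex IV (triangles) and its ubiquitous partner (circles) in the 8 libraries, on an axis that is linear to 1 and logarithmic above. Within each group replicate A is on the left and B on the right. The partners lie between 906 and 4919 reads in total RNA, and the tissue forms reach at most 45.

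Total RNA of miR-379KO MMC was compared to WT MMC to ask whether the respiratory chain mRNAs changed in level with the deletion. None passed. Of 78 genes put through edgeR's quasi-likelihood test, 0 were called at an adjusted p under 0.05 (over all 12321 genes tested the share was 0%), 0 had an unadjusted p under 0.05, and DESeq2 called 0 as well. The study's own cutoff, more than 1.5-fold with unadjusted p under 0.05, took 0 members, against 0.682% of all genes tested. The 7 genes not tested were Ndufs5 and the tissue isoforms other than Cox6b2.

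The estimates nevertheless leaned one way. The log2 fold change was above 0 for 74 of 78 genes with a median of 0.22, against a median of −0.01 over all genes tested, and 4 genes did not overlap between genotypes with miR-379KO higher, or 5.13% against 9.89% of all genes, and 1 with miR-379KO lower, or 1.28% against 9.07%. The lean rested on WT A, the library in which the mesangial and tubule marker sums were also lowest, and their part in it was not tested. The mesangial markers did not all follow their sum. Acta2 and Tagln had fewer reads in WT A (115436 and 67373) than in WT B (166088 and 90759). Cspg4 and Itga8 had more reads in WT A (1910 and 38) than in WT B (1652 and 7). Summed over the 85 genes, the level was 5526 CPM in WT A and 8111 in WT B, compared to 7310 and 8834 CPM in miR-379KO A and B, so that WT B lay between the knockout libraries. Within the WT pair 73 of 78 genes were higher in B than in A, with a median log2 difference of 0.57. Without WT A the median log2 fold change was −0.01 with 36 of 79 genes higher in miR-379KO, and without WT B it was 0.55 and 29 genes passed the study's cutoff. The 172 genes, members included, with over 1000 total RNA reads a library on average and under 1 kb of exon had a median of 0.26.

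**Figure D3:**
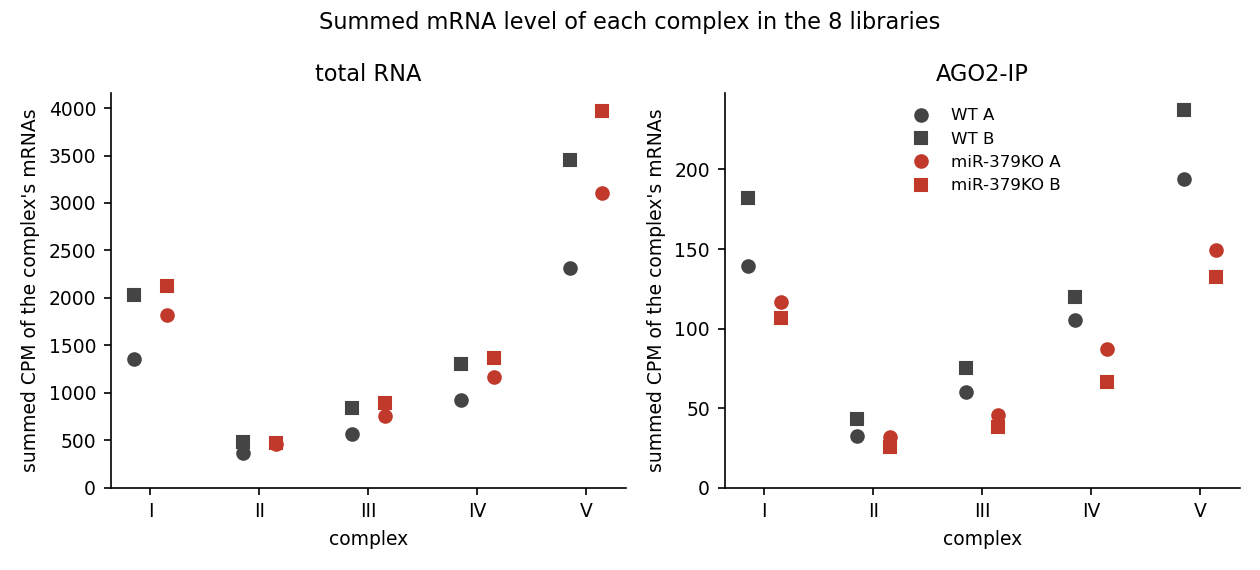
Summed CPM of the mRNAs of each complex in every library, with total RNA on the left and AGO2-IP on the right. Circles are replicate A and squares replicate B, WT in grey and miR-379KO in red. In total RNA WT A is the lowest library for each complex and WT B lies above the lower knockout library. In AGO2-IP both knockout libraries lie below both WT libraries.

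By complex, the median log2 fold change in total RNA was 0.23 in complex I (34 of 35 above 0), 0.20 in complex II (3 of 4), 0.25 in complex III (9 of 9), 0.14 in complex IV (11 of 13) and 0.24 in complex V (17 of 17). Core and accessory genes had medians of 0.23 and 0.22. The summed level of complex V was 2314 and 3452 CPM in WT and 3103 and 3973 CPM in miR-379KO, and that of complex II 368 and 483 against 466 and 474.

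The values of single genes show the same spread. Atp5b was at 862 and 1275 CPM in WT and 1171 and 1606 CPM in miR-379KO, so WT B was above knockout A, and its log2 fold change was 0.38 ± 0.32 (adjusted p = 1). The smallest p-values in each complex belonged to Ndufb7 (0.46 ± 0.28) in complex I, Sdhb (0.31 ± 0.37) in complex II, Uqcr11 (0.39 ± 0.29) in complex III, Cox6b1 (0.27 ± 0.27) in complex IV and Atp5j2 (0.46 ± 0.32) in complex V, all above 0 and each with an edgeR adjusted p of 1. On the other side of 0 were Ndufs1 (−0.01 ± 0.20), Sdha (−0.0047 ± 0.20) and Cox6c (−0.12 ± 0.20).

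Sdha and Ndufs1 differed little among the 4 total RNA libraries. Sdha, the succinate-binding subunit, was at 176 and 176 CPM in WT and 179 and 171 CPM in miR-379KO. Ndufs1, the largest iron-sulfur subunit of complex I, was at 77.1 and 83.1 against 79.1 and 79.5 CPM. Sdhb, the partner of Sdha in the same enzyme, was at 54.9 and 116 CPM in WT, compared to 95.6 and 117 in miR-379KO, with WT A alone low. Sdhd did not overlap, at 61.3 and 76.7 CPM in WT, compared to 79.3 and 77.2 in miR-379KO, and its log2 fold change was 0.18 ± 0.22 (edgeR, adjusted p = 1).

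Across the 78 genes the log2 fold change in total RNA ran with GC content of the exons (Spearman's rho 0.38) and hardly with exon length (−0.04), as a description over genes that share the same libraries. With an offset for exon length and GC content the median was 0.06, and 51 of 78 genes were above 0.

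AGO2-IP of the genotypes was compared to ask which mRNAs were recovered differently with AGO2 when miR-379 was deleted. Respiratory chain mRNAs were lower in miR-379KO AGO2-IP. With an offset for exon length and GC content their median lay close to that of all genes. The same offset left them apart from all genes in the contrast with total RNA given below. Of 76 genes tested 70 had a log2 fold change below 0, with a median of −0.59 against −0.01 over all 13505 genes tested. At an adjusted p under 0.05, 19 genes, or 25.0%, were called lower, against 9.52% of all genes, and 0 were called higher, against 21.4% of all. At the study's cutoff 32 genes, or 42.1%, were lower, against 13.3%, and for 58 genes, or 76.3%, both knockout libraries lay below both WT libraries, against 32.2%. The members called were Ndufa3, Ndufa7, Ndufb2, Ndufb7, Uqcr11, Uqcrc1, Uqcrh, Uqcrq, Cyc1, Cox4i1, Cox6a1, Cox8a, Ndufa4, Atp5h, Atp5a1, Atp5b, Atp5d, Atp5g2 and Atp5o.

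A fall of this size was common among abundant mRNAs. Of 3651 genes with over 1000 total RNA reads a library on average, 963, or 26.4%, were called lower, with a median log2 fold change of −0.45, and of the 171 of these with under 1 kb of exon 69, or 40.4%, were called lower, with a median of −0.62. The share of members called, 25.0%, was not above either. Both sets include members, and many members had fewer reads than the sets require. The shares, here and for single complexes below, are therefore not matched for read depth. In AGO2-IP, 46.6% and 49.7% of uniquely placed reads of WT lay outside genes, compared to 73.4% and 76.4% of those of miR-379KO, and the part of this difference in the result was not tested. After subtracting from each library the reads per kb found on genes silent in total RNA, the median was −0.71, with 74 of 76 genes lower. The subtraction removed 2.14% and 1.39% of member reads in WT and 7.23% and 10.5% in miR-379KO. It left the scaling of the libraries unchanged, so a lower median was built in and decides nothing.

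The size of the difference also rests on the scale. As a share of gene counts other than Rn45s and Lars2, the 85 genes took 0.289% and 0.354% in WT AGO2-IP and 0.281% and 0.259% in miR-379KO. On that scale complex I took 0.0760% and 0.0980% in WT, compared to 0.0762% and 0.0748% in miR-379KO, and complex II 0.0179% and 0.0232% against 0.0207% and 0.0181%, both of which overlap. Complexes III, IV and V did not overlap, at 0.0329% and 0.0405% against 0.0300% and 0.0266%, at 0.0574% and 0.0646% against 0.0569% and 0.0466%, and at 0.105% and 0.128% against 0.0975% and 0.0930%. When only genes with a mean of at least 50 reads were tested and used for scaling, 27 members remained, 0 were called and their median was −0.24. With an offset for exon length and GC content 7 were called, 49 of 76 genes were below 0, and the median was −0.14 against −0.10 over all genes tested. Counts called in these alternative settings are given without the share of all genes, so they do not set members apart from other genes. Without miR-379KO B 0 members were called, without WT B 7 and without WT A 34.

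**Figure D4:**
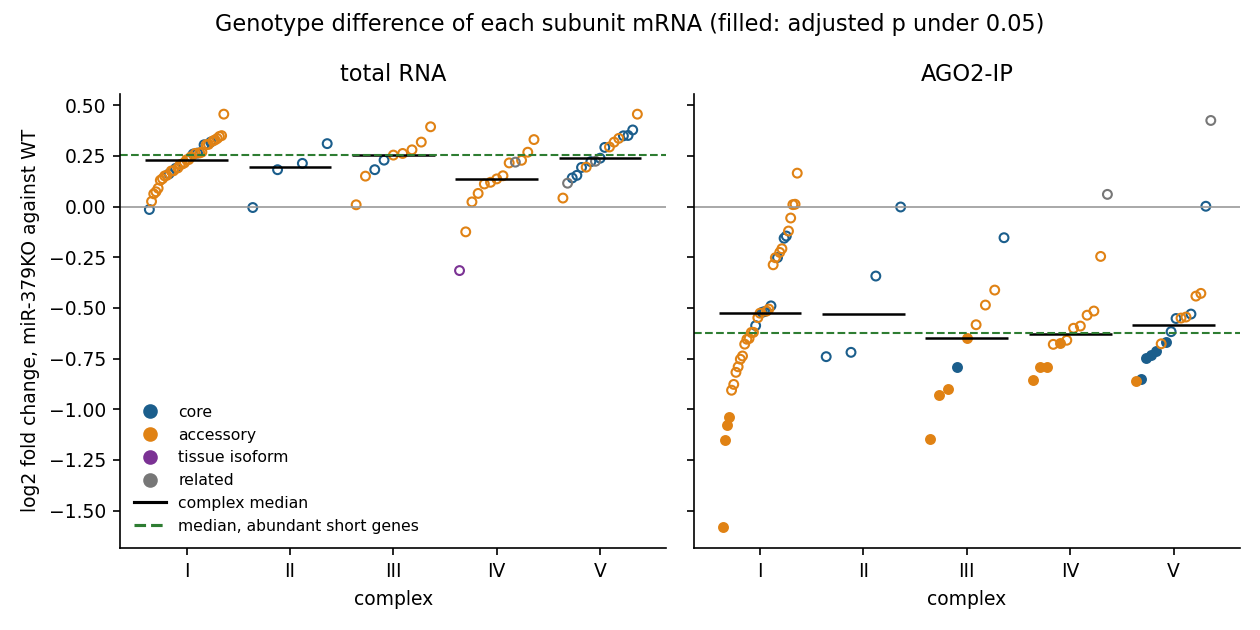
Log2 fold change of each respiratory chain mRNA, miR-379KO against WT, by complex, in total RNA (left) and AGO2-IP (right). Filled points passed an adjusted p under 0.05, black bars are medians of each complex, and the dashed line is the median of genes with over 1000 total RNA reads and under 1 kb of exon (0.26 and −0.62). No total RNA point is filled, and the medians in AGO2-IP lie between −0.53 and −0.65.

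In complex I, 4 of 35 genes tested fell in AGO2-IP, all of them accessory, and the median log2 fold change was −0.53. The share called, 11.4%, was near the 9.52% of all genes and below the 40.4% of abundant short genes. Many complex I genes, among them Ndufa3, Ndufb2 and Ndufb7, had fewer total RNA reads than that set requires. Ndufb2 (GRCm38.p6 chr6:39592565-39599843, plus strand), a small subunit of the membrane arm, had 34 and 22 reads in WT, compared to 8 and 8 in miR-379KO, with a log2 fold change of −1.58 ± 0.42 (edgeR, adjusted p = 0.00771). It was the lowest estimate of all members. Ndufa3 had 49 and 53 reads in WT, compared to 25 and 15 in miR-379KO (−1.15 ± 0.32, edgeR, adjusted p = 0.0105), and Ndufa7 and Ndufb7 fell by 1.04 and 1.08 on the log2 scale. At the other end of complex I, Ndufb3 had 17 and 19 reads in WT and 12 and 23 in miR-379KO, which overlap (0.16 ± 0.42, edgeR, adjusted p = 0.793). None of the 7 core genes was called. Their estimates ran from −0.59 ± 0.34 for Ndufs7 to −0.15 ± 0.27 for Ndufv2. The difference between core and accessory genes was not tested.

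In complex II 0 of 4 genes were called, with a median of −0.53, and 2 had an unadjusted p under 0.05. Sdhc had 60 and 73 reads in WT AGO2-IP and 47 and 24 in miR-379KO (−0.72 ± 0.30, edgeR, adjusted p = 0.0719), and Sdhd had an estimate of −0.74 ± 0.35 (edgeR, adjusted p = 0.110). Sdhb, at 51 and 51 reads against 54 and 35, had an estimate of −0.0020 ± 0.28, and the groups overlapped.

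In complex III 5 of 9 genes, or 55.6%, fell, with a median of −0.65. The shares called lower were 9.52% of all genes and 40.4% of abundant short genes. Uqcrh (GRCm38.p6 chr4:116066965-116075070, minus strand), the hinge protein that lies at the cytochrome c1 contact, had 78 and 58 reads in WT, compared to 30 and 23 in miR-379KO, that is 7.65 and 6.71 against 3.52 and 2.94 CPM, with a log2 fold change of −1.15 ± 0.28 (edgeR, adjusted p = 0.00466). Uqcr11, at 52 and 49 reads against 28 and 19, was at −0.90 ± 0.31 (edgeR, adjusted p = 0.0289), and Uqcrc1, at 157 and 162 against 104 and 74, at −0.65 ± 0.23 (edgeR, adjusted p = 0.0341). Of the core pair, Cyc1 fell (67 and 74 reads against 38 and 33, −0.79 ± 0.27, edgeR, adjusted p = 0.0299) and Uqcrfs1 did not pass (28 and 47 reads against 24 and 35, −0.15 ± 0.35).

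In complex IV 4 of 12 genes tested, or 33.3%, fell, with a median of −0.63. That share was above the 9.52% of all genes and below the 40.4% of abundant short genes. Cox6a1 had 116 and 114 reads in WT, compared to 69 and 42 in miR-379KO (−0.86 ± 0.25, edgeR, adjusted p = 0.0128), Cox8a 103 and 75 against 49 and 40 (−0.79 ± 0.25, edgeR, adjusted p = 0.0208), and Cox4i1 175 and 172 against 118 and 73 (−0.67 ± 0.23, edgeR, adjusted p = 0.0322). The fourth, Ndufa4, was named for complex I and is now placed in complex IV, and it fell by 0.79 on the log2 scale. With the length and GC offset the estimates of Cox4i1 and Cox8a turned to 0.035 and 0.068. Cox7a2l, an assembly factor of supercomplexes, was at 0.06 ± 0.26, and Cox7a2 and Cox7b had estimates of −0.25 ± 0.30 and −0.68 ± 0.32 and were not called.

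In complex V 6 of 16 genes tested, or 37.5%, fell, 5 of them core, with a median of −0.58. That share too lay between the 9.52% of all genes and the 40.4% of abundant short genes. Atp5b had 686 and 767 reads in WT AGO2-IP and 440 and 340 in miR-379KO, or 67.3 and 88.7 against 51.6 and 43.4 CPM, and a log2 fold change of −0.71 ± 0.26 (edgeR, adjusted p = 0.0374). Atp5a1, at 328 and 368 reads against 216 and 169, was at −0.67 ± 0.24 (edgeR, adjusted p = 0.0349), and Atp5d, at 96 and 89 against 47 and 42, at −0.85 ± 0.25 (edgeR, adjusted p = 0.0128). Atp5o and Atp5g2 fell by 0.75 and 0.73 on the log2 scale. Atp5c1, the γ subunit that turns inside the α and β ring, was level, at 11.4 and 11.3 CPM in WT, compared to 11.7 and 11.0 in miR-379KO, with an estimate of 0.0016 ± 0.22 (edgeR, adjusted p = 0.996). Atp5f1, Atp5g1 and Atp5g3 had estimates of −0.53, −0.62 and −0.55 and did not pass. Among the related genes Atp5sl was at 0.42 ± 0.46, on 12 and 6 reads against 12 and 9.

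The change in AGO2-IP was then set against the change in total RNA in a fit of all 8 libraries. The difference of the log2 fold changes, AGO2-IP minus total RNA, was below 0 for 77 of 79 genes, with a median of −0.99 against 0.01 over all 17429 genes tested. By edgeR 0 members were called at an adjusted p under 0.05 (0% of all genes), 44 had an unadjusted p under 0.05, and DESeq2 called 1. At the study's cutoff 44 members, or 55.7%, were lower, against 10.9% of all genes. The median was −0.91 in complex I, −0.84 in complex II, −1.12 in complex III, −1.003 in complex IV and −1.04 in complex V, with −0.97 over core and −1.02 over accessory genes. The 172 abundant genes with under 1 kb of exon had a median of −1.07, of which 113 were lower at the study's cutoff. With the length and GC offset the median of members was −1.05, against −0.34 over all genes tested. The largest difference with a measurable level in all groups was that of Ndufb2, −2.05 ± 0.52 (edgeR, adjusted p = 0.235), and that of Uqcrh was −1.60 ± 0.40 (edgeR, adjusted p = 0.234). WT A of total RNA entered this contrast too. Without it the median was −0.69 with 0 called, and without WT B of total RNA it was −1.43 with 54 called.

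Recovery with AGO2 was finally described as AGO2-IP against total RNA within a genotype. Antibody pull-down and library protocol change together in this comparison. In WT the median log2 difference of members was −1.04, against 0.49 over all genes, and 40 of 79, or 50.6%, were at least 2-fold lower in AGO2-IP at an adjusted p under 0.05, against 7.33% of all genes, with 0 higher. In miR-379KO the median was −1.98, against 0.47 over all genes, and 72 of 79, or 91.1%, were called lower, against 19.3%. Abundant genes with under 1 kb of exon, members included, had medians of −1.17 and −2.20. Of these 172 genes, 105 were called lower in WT and 166 in miR-379KO, so low recovery was not particular to the respiratory chain. All 9 core genes of complex V were called lower in WT, with a median of −1.31, as were 2 of 7 core genes of complex I, 3 of 4 genes of complex II and both core genes of complex III. Without WT B of total RNA, 10 members were called lower in WT and 1 higher.

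**Figure D5:**
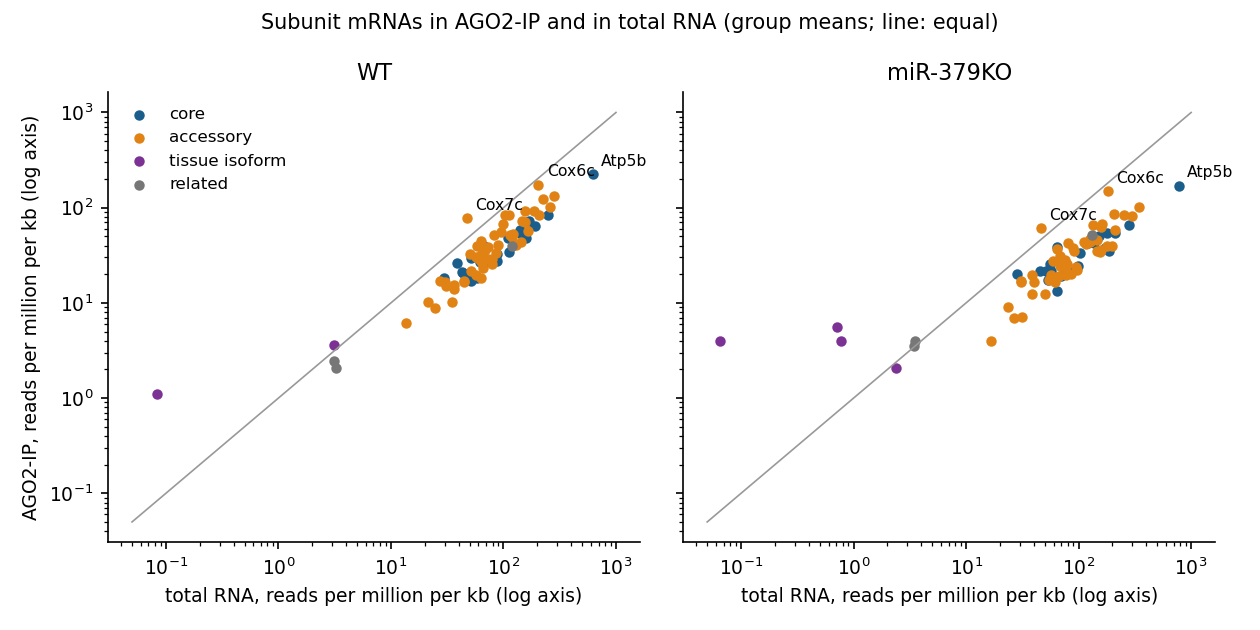
Reads scaled to the gene counts other than Rn45s and Lars2 (as in CPM) and per kb of exon, in AGO2-IP (vertical) against total RNA (horizontal), as means of the 2 libraries of each group, WT on the left and miR-379KO on the right, with both axes logarithmic. The line marks equal values. Genes with 0 in either assay are left out. Of 79 genes above 0 in all groups, 76 lie below the line in WT and 75 in miR-379KO, and 65 have a lower ratio of AGO2-IP to total RNA in miR-379KO and 14 a higher one. Atp5b moves from 0.361 to 0.219 and Ndufs1 from 0.607 to 0.707, and Cox7c lies above the line in both.

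Cox7c stood apart from the other ubiquitous subunits. It had 272 and 415 reads in WT total RNA and 62 and 58 in WT AGO2-IP, a log2 difference of 0.86 ± 0.29 (edgeR, adjusted p = 0.0190), and 0.86 on this scale is under the 2-fold limit. In miR-379KO its difference was −0.01 ± 0.30 (edgeR, adjusted p = 0.974). Cox6c was next among the ubiquitous complex IV genes, at −0.06 ± 0.24 in WT and −0.68 ± 0.25 in miR-379KO (edgeR, adjusted p = 0.857 and 0.0204). As given above, most windows of Cox7c occur elsewhere in the genome, and the part of this in its values was not tested. At the other end Atp5o was the lowest member in miR-379KO, at −2.80 ± 0.33. In WT it was at −1.58 ± 0.31, and Ndufb11 was lower there at −1.65 ± 0.32. Atp5b was at −1.31 ± 0.33 in WT and −2.58 ± 0.34 in miR-379KO.

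Genes that assemble the complexes or carry electrons between them, outside the symbol pattern, were listed beside the subunits. Of 48 tested in total RNA 38 had a log2 fold change above 0, with a median of 0.13 and 0 called. In AGO2-IP 35 were tested, 20 were below 0 with a median of −0.10, 1 was called lower and 1 higher, or 2.86% each, both shares below the 9.52% and 21.4% of all genes. Chosen for their calls, these are given as values. Atpif1, the inhibitor of the ATP synthase, had 83 and 66 reads in WT AGO2-IP and 41 and 28 in miR-379KO (−0.90 ± 0.27, edgeR, adjusted p = 0.0148). Ndufaf7, a methyltransferase of complex I assembly, went the other way, from 39 and 31 reads in WT to 62 and 68 in miR-379KO (1.10 ± 0.27, edgeR, adjusted p = 0.00462), while its total RNA log2 fold change was 0.02 ± 0.24. Cycs, the mobile carrier cytochrome c, was at −0.29 ± 0.25 in AGO2-IP and 0.21 ± 0.20 in total RNA, and neither passed.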

How the data were processed

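Gene counts were analysed from 2 WT and 2 miR-379KO samples of total RNA and as many of AGO2-IP. The deposited values were whole-read counts per gene without normalization. Per the study's methods, TopHat was used by the authors for alignment to mm10, and htseq-count with the reverse strand setting and a minimum mapping quality for counting on RefSeq genes from UCSC, so genes with near-identical copies are undercounted and antisense genes are kept apart. The methods give single-end reads of 51 bases or longer paired-end reads for total RNA and longer paired-end reads for AGO2-IP.

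The study's legends describe A and B of AGO2-IP as independent, and for total RNA only the letters are given. Where samples shared a culture, p-values measure technical spread only. With 2 samples against 2 an exact permutation test cannot go below 0.333, so tests were fitted across all genes in edgeR 4.0.16 (R 4.3.3) using filterByExpr, TMM factors, robust quasi-likelihood F tests and Benjamini-Hochberg adjustment. Genotypes were compared within an assay on its 4 libraries, and contrasts between assays were fitted on all 8. On simulated counts the test recovered 14.0% of 2-fold and 86.9% of 8-fold changes in total RNA, and 29.1% and 97.6% in AGO2-IP.

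CPM were computed per assay with TMM factors, and CPM per kb used the exon length in RefSeq GRCm38.p6, where all 85 members matched. CPM of the assays are on different scales, because Rn45s is in the AGO2-IP total. Windows of 51 bases of each mRNA were searched letter for letter elsewhere in the genome. A share over 50% was found for 10 members. The members, the complex assignments and the marker and pathway lists were chosen with earlier results of these data known. Named genes were the core genes, the complex IV isoforms with their partners, the smallest p in each direction per complex, the highest and lowest level per complex, members with a seed match, and the members called in AGO2-IP, which like Cox7c were added after their values were seen. Among the core genes and markers, 2 genes are not reported here. Alternatives were DESeq2 1.42.0, RLE factors, other filters, the replicate letter as a block, a length and GC offset, all libraries in one fit, background subtraction and omission of each replicate.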

Additional observations from a re-analysis of the deposited data

How the results depend on the processing

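The median of members in the AGO2-IP comparison of genotypes was below 0 under each alternative run, and its calls and its distance from all genes were not stable. In AGO2-IP the 19 members called and the 32 past the study's cutoff became 0 and 0 when genes needed a mean of 50 counts (median −0.24), 7 and 11 with the length and GC offset (median −0.14, all genes −0.10), 41 and 58 with no filter on low counts (55 of the 58 lower and 3 higher), 8 called by DESeq2 (median −0.84, where the median of all genes was 0.31), and 2 called with all 8 libraries in one fit. Omission of each replicate gave 0 to 34 called, 12 to 49 past the cutoff and medians of −0.805 to −0.48. With the length and GC offset Cox4i1 and Cox8a turned to 0.035 and 0.068. The cause was not tested. Counts called or past the cutoff under the alternatives, here and below, are of members only. The shares of all genes in the same settings are not given, so these counts do not set members apart.

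In total RNA 0 members were called under each alternative, and omission of a replicate gave 0 to 29 members past the cutoff and medians of −0.0077 to 0.55. For the AGO2-IP change beyond the total RNA change, 0 called and 44 past the cutoff became 20 past it with RLE factors, 9 at that mean of 50 counts (median −0.61), and 1 called and 26 past it with DESeq2 (median −0.70, all genes 0.61). With the length and GC offset 19 were called and 60 were past the cutoff (median −1.05, all genes −0.34). Omission of a replicate gave 0 to 54 called, 6 to 68 past the cutoff and medians of −1.43 to −0.54. For AGO2-IP against total RNA, omission of a replicate in WT gave 11 to 64 called and medians of −1.48 to −0.60, and in miR-379KO the median was −1.47 at that mean and −2.36 with the length and GC offset.

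The letters A and B appear in all groups. Deviations of same-letter samples from their group means correlated at −0.07 across genes in total RNA and 0.04 in AGO2-IP, and between total RNA and AGO2-IP at 0.22 in WT and 0.19 in miR-379KO. The labels do not say what the letters share, and fits without a block treat same-letter libraries as separate. A replicate block within genotype, added after seeing the data, gave 29 members called in place of 0 in the contrast of the assays between genotypes (58 past the cutoff, median −1.02), and 36 and 72 called for AGO2-IP against total RNA in WT and miR-379KO. With a common replicate block 0 members were called in total RNA (median 0.24), 16 in AGO2-IP and 0 in the contrast of the assays. The replicate block with the length and GC offset gave 6 called and 11 past the cutoff in AGO2-IP (median −0.13, all genes −0.097), where Cox4i1 and Cox8a were at 0.0275 and 0.0699, and 35 called in the contrast of the assays. Depth limits single genes in AGO2-IP, where members tested had a median of 30.5 reads in miR-379KO.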
